A study of Mus musculus with 23 samples.

Results

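DNA topoisomerases and condensin shape chromosomes, and the RNAs of 9 of their genes were followed here through the crosslink sites of the chromatin architectural protein CTCF. Topoisomerases relieve twist and tangles by cutting DNA and sealing it again: type I enzymes (Top1, Top3a) open a single strand and type II enzymes (Top2a, Top2b) pass a duplex through a cut in both strands. Condensin is a ring of the ATPases Smc2 and Smc4 with a kleisin and a pair of HEAT-repeat subunits, and it extrudes loops to compact mitotic chromosomes; Ncapd2 belongs to condensin I, Ncapd3 and Ncapg2 to condensin II. The genes were taken by name and not by a threshold on their sites: Top1, Top2a, Top2b, Top3a, Smc2, Smc4, Ncapd2, Ncapg2 and Ncapd3, which are 9 of 55413 annotated genes and of 13608 genes with at least 1 site. Together they held 3246 of the 1283070 sites that lay inside a gene on its strand (genic sites).

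The series used iCLIP2, in which UV light links a protein to RNA and reverse transcription stops beside the linked nucleotide. Mouse E14 embryonic stem cells (ESCs) carried mAID-eGFP tags on the endogenous CTCF alleles, OsTIR1(F74G) at Rosa26, and a doxycycline-inducible Flag-Halo-CTCF rescue at the Tigre locus, either wild type (WT) or lacking part of zinc finger 1 (ΔZF1). All groups shared a 24 hour treatment in which 1 µM 5-Ph-IAA removed the endogenous protein and doxycycline, at 1 µg/mL, switched on the rescue, and nuclear RNA bound to the rescue was recovered with anti-Flag antibody. Both lines were crosslinked at 400 mJ/cm2 as ESCs and, after 2 days of differentiation, as neural progenitor cells (NPCs). Controls that received no UV (noXL) were made for either cell type. Each rescue line was 1 clone, and both noXL groups came from the WT line. A difference of ΔZF1 from WT or from noXL therefore also compares 2 clones.

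Each group gave 1 list of sites, called on its merged libraries (4 libraries, or 3 for NPC WT), so no value has a replicate error, no difference between conditions was tested, and every interval below covers counting error only. Genic sites numbered 429119, 217770 and 150821 for ESC WT, ΔZF1 and noXL, and 230147, 153211 and 102002 for NPC WT, ΔZF1 and noXL, while the read depth behind them is unknown. The 6 naive stem cell markers held 331 to 1248 sites in the ESC lists and 17 to 30 in the NPC lists. The 6 neural progenitor markers held 0 to 2 against 25 to 41 sites, most of them in Nes. Hes5 and Zic1 were at 0 in every list, and Sox1 and Pax6 in every list except NPC noXL, so 4 of the 6 were at 0 in both NPC lists made with UV. Pou5f1 and Sox2 together held 13 to 72 sites in ESCs and 7 to 23 in NPCs, the 3 neuron markers 1 to 10 and 3 to 7, and the 5 mesoderm and endoderm markers 0 in all lists. In this assay fewer transcripts of a gene and fewer contacts per transcript cannot be told apart.

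**Figure D1:**
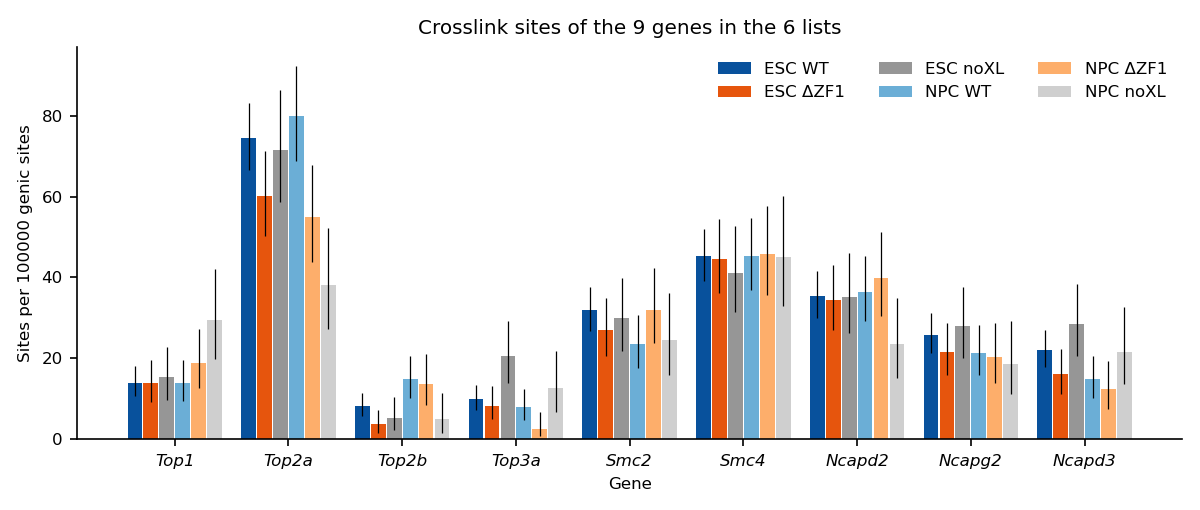
Bars give crosslink sites per 100000 genic sites of each list for the 9 genes, and black lines are exact Poisson 95% intervals (counting error only). Top2a was highest in 5 of the lists, between 54.8 and 80.0, and fell below Smc4 only in NPC noXL, at 38.2.

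Among the topoisomerases, Top2a, the isoform of dividing cells, carried by far the most sites. In ESCs its sites numbered 320 with WT rescue, 131 with ΔZF1 and 108 without UV, and the corresponding NPC lists had 184, 84 and 39. That placed it 112th among all genes in ESC WT and 70th in NPC WT by number of sites. Its relative Top2b, which is also made in cells that no longer divide, had 35, 8 and 8 sites in the same order of ESC lists, and the NPC lists had 34, 21 and 5. Top1, which works ahead of RNA polymerase, went from 60 to 30 and 23 sites across the ESC lists but stayed at 32, 29 and 30 across the NPC lists. Top3a, which resolves joined strands with the helicase Blm, had 43, 18 and 31 sites in ESCs, while NPCs gave 18, 4 and 13. The Top3a count in ESC noXL was thus close to that in ESC WT although the noXL list was much shorter.

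The condensin genes lay between Top2a and the other topoisomerases in ESC WT. Smc4 led them with 194 WT, 97 ΔZF1 and 62 noXL sites in ESCs, and its NPC counts were 104, 70 and 46. Its partner Smc2 had 137, 59 and 45 (ESCs) and 54, 49 and 25 (NPCs), and Ncapd2 of condensin I had 152, 75 and 53 (ESCs) and 84, 61 and 24 (NPCs). For condensin II, Ncapg2 had 111, 47 and 42 (ESCs) and 49, 31 and 19 (NPCs), and Ncapd3 had 95, 35 and 43 (ESCs) and 34, 19 and 22 (NPCs). The order WT, ΔZF1, noXL of these counts followed the lengths of the lists for every condensin gene in both cell types except Ncapd3, where noXL exceeded ΔZF1 in ESCs and in NPCs. Per 100000 genic sites, Smc4 was the most even of the 9 genes, from 41.1 to 45.7 over the 6 lists.

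Most of the differences between genes in body length were in introns, so densities were set per kb of exon or intron of the principal transcript. In mm10 the topoisomerase genes were Top1 (chr2:160645888-160722764, plus strand), Top2a (chr11:98992943-99024189, minus), Top2b (chr14:16365179-16435462, plus) and Top3a (chr11:60740058-60777365, minus). The SMC genes were Smc2 (chr4:52439243-52488260, plus) and Smc4 (chr3:69004738-69034623, plus). The other condensin genes were Ncapd2 (chr6:125168007-125191701, minus), Ncapg2 (chr12:116405402-116463731, plus) and Ncapd3 (chr9:27030175-27095315, plus). In ESC WT the exon density was highest in Ncapd2, at 24.4 sites per kb (20.1 to 29.4), followed by Top2a at 19.5, Ncapg2 at 17.7, Smc4 at 17.1, Smc2 at 16.7, Ncapd3 at 13.5, Top1 at 13.2 and Top3a at 9.36 (6.52 to 13.01). Neighbours in that order had overlapping intervals. Top2b stood apart below them at 3.39 sites per kb of exon (2.36 to 4.71), where only 3.72% of the 5273 genes with at least 20 ESC WT sites had a lower value and the median gene had 12.7. Its 3′ untranslated region, 4999 nt of its 10.3 kb of exon, held 3 of its 35 sites, and its coding density was 5.79 sites per kb.

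Introns separated the genes much further than exons did. Top2a had 218 of 320 ESC WT sites in introns, or 68.1% (62.8 to 73.0), at 8.38 sites per kb of intron, which exceeded 96.2% of the genes compared. Smc4 had 120 of 194 in introns, or 61.9% (54.9 to 68.4), at 4.69 per kb. Ncapd2 (25.7%), Smc2 (34.3%), Ncapd3 (22.1%), Top3a (18.6%) and Top1 (15.0%) were nearer to the median gene, which had 18.9%. Ncapg2 had 6 intron sites beside 83 exon sites, and its other 22 ESC WT sites lay outside the principal transcript. Top2b had 0 of 35 sites in 59.95 kb of intron. A count of 3 there would be 0.0500 sites per kb, and the exact Poisson upper limit was 0.0615. A share of 0 was not rare, since 771 of 5273 genes (14.6%) had no intron site in ESC WT.

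**Figure D2:**
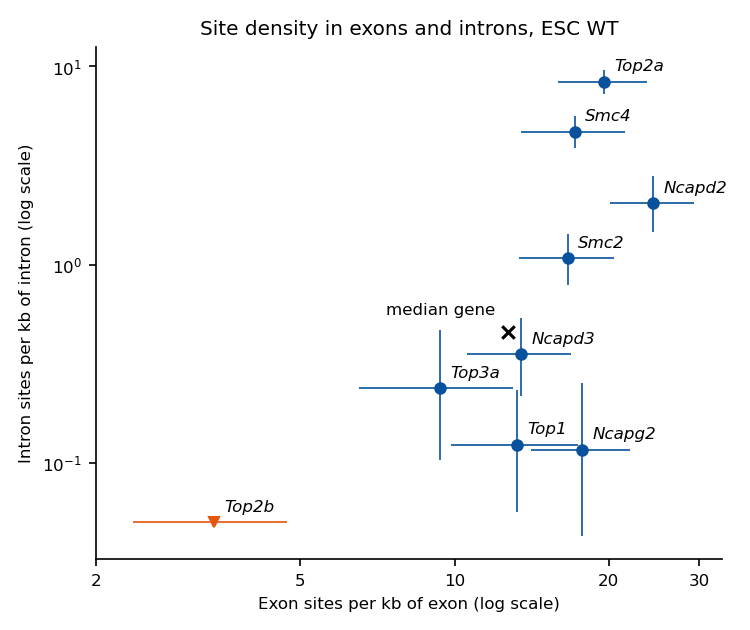
Each point is 1 gene in ESC WT, with exon sites per kb of exon on the horizontal axis and intron sites per kb of intron on the vertical axis (both log scales), and lines are exact Poisson 95% intervals. Top2a and Smc4 are highest in introns, while Top2b is lowest on both axes (its triangle is the upper limit allowed by 0 sites) and the cross marks the medians over 5273 genes.

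The intron sites of Top2a and Smc4 were spread out. In Top2a they fell in 24 introns, with 32 in intron 5 (2268 nt) and 28 in intron 4 (2769 nt). In Smc4 they fell in 19 introns, with 45 in intron 5, which is 6432 nt long. The intron share of Top2a was 67.4% to 79.5% over the 6 lists, noXL included, and that of Smc4 was 55.7% to 65.4%. The median gene went from 18.9% (WT) to 47.5% (noXL) in ESCs, and from 21.7% (WT) through 46.9% (ΔZF1) to 56.5% (noXL) in NPCs. Each median is over the genes with at least 20 sites in that list, so the gene set changes with it. In the same order it held 5273 and 2295 genes in ESCs, and 3630, 2289 and 1462 in NPCs. Summed over all genes with a principal transcript, the intron share moved less. It was 40.2% and 47.0% in ESCs, and 32.6%, 45.9% and 48.9% in NPCs. Ncapd2 in NPCs had 16 intron sites of 84 in WT (12.1% to 28.7%), 32 of 61, or 52.5%, in ΔZF1 (40.2% to 64.5%) and 5 of 24, or 20.8%, in noXL (9.24% to 40.5%). Its ΔZF1 share was thus above WT, as for the median gene, but its noXL share was close to WT. Of the Top2a sites in ESC WT, 38.8% lay in soft-masked repeats, against 20.0% for all 9 genes and 16.6% for all genic sites.

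**Figure D3:**
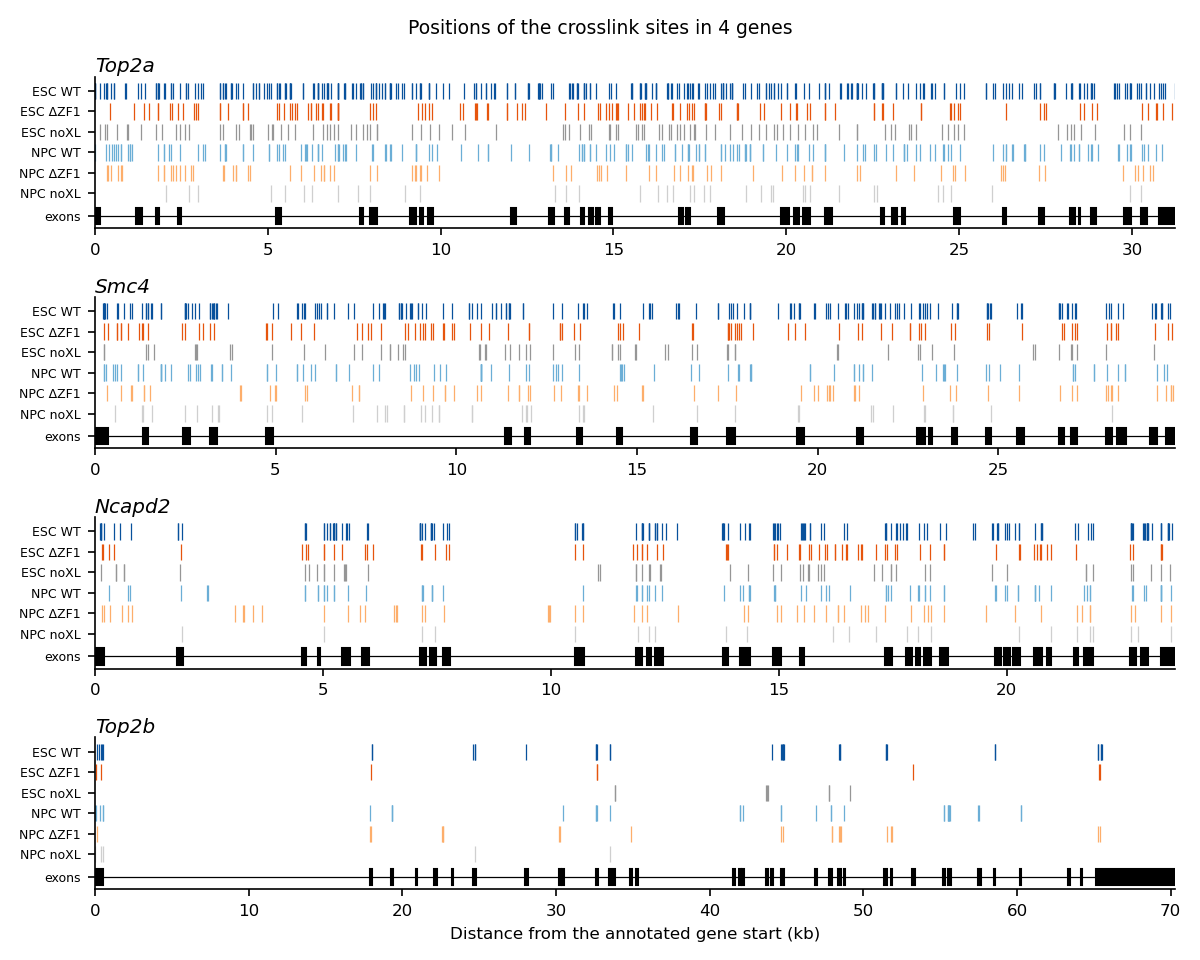
Crosslink sites (vertical ticks, 1 row per list) along Top2a, Smc4, Ncapd2 and Top2b, drawn from the annotated start of each gene in kb, with exons of the principal transcript as black boxes. Ticks cover introns and exons of Top2a and Smc4 alike, whereas those of Top2b sit on exons apart from 2 in ESC noXL, 1 in NPC WT and 5 in NPC ΔZF1.

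Windows of 60 nt show what these sites look like (GRCm38, the same build as mm10, 5′ to 3′ on the gene strand, crosslinked bases of the named list in capitals). For each gene the window with most ESC WT sites outside annotated untranslated regions was taken. The next 4 were picked because their sites are mainly on uridines, so their bases are an illustration and no result, and the windows of Top3a, Ncapg2 and Ncapd3, which are not shown, each had 2 of 4 sites on uridines. The 4 are exon 24 of Smc2 (chr4:52484078-52484137, plus strand), intron 5 of Smc4 (chr3:69013166-69013225, plus), exon 18 of Top1 (chr2:160717448-160717507, plus) and exon 26 of Top2b (chr14:16416640-16416699, plus).
Smc2, ESC WT: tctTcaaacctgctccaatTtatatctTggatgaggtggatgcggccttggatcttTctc
Smc4, ESC WT: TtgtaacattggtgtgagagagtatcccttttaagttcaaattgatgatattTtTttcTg
Top1, ESC WT: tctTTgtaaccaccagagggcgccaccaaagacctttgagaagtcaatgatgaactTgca
Top2b, ESC WT: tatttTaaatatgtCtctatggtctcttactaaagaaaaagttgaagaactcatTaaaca
All 4 capitals of Smc2, all 4 of Smc4 and all 3 of Top1 were uridines, as were 2 of 3 in Top2b. The windows were chosen by their ESC WT sites, and ESC WT is the longest list, so fewer sites in the other lists are no result. In the Smc4 window no other list had a site. In the Smc2 window ESC ΔZF1, ESC noXL, NPC WT and NPC ΔZF1 each had 1 site, and only the NPC WT site was on a base that is also a capital above.

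The corresponding window of Top2a, in intron 24 (chr11:99002103-99002162, minus strand), looked different and is shown with the noXL list beside it.
Top2a, ESC WT: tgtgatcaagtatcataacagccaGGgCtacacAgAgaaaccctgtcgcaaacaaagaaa
Top2a, ESC noXL: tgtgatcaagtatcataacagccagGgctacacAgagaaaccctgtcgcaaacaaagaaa
None of its 5 ESC WT sites was on a uridine, all 5 were in soft-masked sequence, and both ESC noXL sites coincided with ESC WT sites. Their highest scores were 13.2 in ESC WT and 10.2 in ESC noXL.

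The highest scores of the 9 genes were found at the edges of small RNAs inside introns, and were present without UV. Ncapd2 hosts the small Cajal body RNA Scarna10 (chr6:125186359-125186683, minus strand) in intron 4, and the position 1 nt before the annotated 5′ end of Scarna10 was the one position out of 2991 with a site in all 6 lists. Its scores were 245, 284 and 300.2 in ESC WT, ΔZF1 and noXL and 187, 137 and 111 in NPCs, the highest of the gene in each list. The scores are not scaled to depth and give no ranking between lists. In Top2a the annotated small nucleolar RNA Gm23451 (chr11:99017031-99017152, minus strand) lies in intron 5, and the position 2 nt before its 5′ end scored 170, 118 and 77.0 in ESC WT, ΔZF1 and noXL and 43.7 in NPC WT. Both windows (chr6:125186654-125186713 and chr11:99017124-99017183, minus strand) are shown because these positions recur.
Ncapd2, ESC WT: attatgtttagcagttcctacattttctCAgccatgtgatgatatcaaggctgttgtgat
Ncapd2, NPC noXL: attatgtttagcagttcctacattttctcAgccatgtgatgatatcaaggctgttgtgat
Top2a, ESC WT: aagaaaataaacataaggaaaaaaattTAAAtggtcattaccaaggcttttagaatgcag
Top2a, ESC noXL: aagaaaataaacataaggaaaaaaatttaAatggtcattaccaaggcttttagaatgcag
The crosslinked bases in the Ncapd2 window were a C and an A, and no list had a uridine site there.

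Inside Scarna10 the picture differed, with 9 WT sites in ESCs against 1 for ΔZF1 and 1 for noXL, and in NPCs 3 WT sites and 0 in the other lists. The window of Ncapd2 with most ESC WT sites lies there (chr6:125186398-125186457, minus strand) and is shown beside its noXL counterpart. Because it was chosen by its ESC WT sites, the lead of ESC WT in it is no result.
Ncapd2, Scarna10, ESC WT: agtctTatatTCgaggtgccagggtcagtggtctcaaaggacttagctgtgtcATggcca
Ncapd2, Scarna10, ESC noXL: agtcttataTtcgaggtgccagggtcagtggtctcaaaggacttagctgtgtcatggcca
Of the 5 ESC WT sites 3 were on uridines, as were the single sites of ESC ΔZF1 and ESC noXL and both sites of NPC WT. The highest scores there were 117 (ESC WT), 42.2 (ΔZF1) and 2.17 (noXL), and 32.7 for WT in NPCs, which again give no ranking between lists. Smc4 hosts the miRNA genes Mir15b and Mir16-2, of which only Mir15b held a site, 1 in ESC WT.

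Such recurrent positions were few. Of the 2991 positions, 2792 were in 1 list alone and 12 were in at least 4 lists. Each of these 12 had a site in a noXL list, which a position in 4 lists can lack only if it is in all 4 UV lists, and 1 of the 12 was a uridine. They included a G 1 nt before an annotated 5′ end of Top1 in 5 lists and a C 2 nt before one of Smc4 in 4 lists. Where positions in at least 3 UV lists and no noXL list were taken instead, there were 20, and 17 of them were uridines. What part the recurrent noXL positions have in the gene counts was not tested beyond removal of sites near noXL sites, which is given with the ratios.

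Uridine was the leading base with UV and not without it. Over the 9 genes, 60.6% of ESC WT sites (57.7 to 63.4) and 50.4% of ESC ΔZF1 sites (46.0 to 54.8) were on a uridine, against 27.5% in ESC noXL (23.4 to 32.0). The corresponding NPC shares were 70.7% (66.9 to 74.2), 58.4% (53.3 to 63.3) and 26.5% (21.1 to 32.6). All genic sites of each list gave 60.7%, 49.2% and 28.3% in ESCs and 64.6%, 59.0% and 27.9% in NPCs, so only the NPC WT share of the 9 genes had an interval that left out the overall share. Exon and intron sites were alike in ESC WT, with 59.5% (55.7 to 63.2) and 60.9% (56.4 to 65.2). The WT share exceeded the noXL share in 8 of 9 genes in ESCs, 5 of them with separate intervals, and in 9 of 9 in NPCs, 8 with separate intervals. Top3a was the exception in ESCs, with 34.9% in WT (22.4 to 49.8), 9 of 18 sites in ΔZF1 and 35.5% in noXL (21.1 to 53.1). The highest share was that of Ncapg2 in NPC WT, 87.8% (75.8 to 94.3), against 54.8% in NPC ΔZF1 (37.8 to 70.8), the one gene with separate intervals between WT and ΔZF1. A run of TTTT on the gene strand within 5 nt of the site, overlaps with other motifs not considered, was present at 14.6% of ESC WT sites of the 9 genes (12.7 to 16.8), at 16.8% of all genic ESC WT sites, and at 6.51% (4.51 to 9.30) of their ESC noXL sites.

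**Figure D4:**
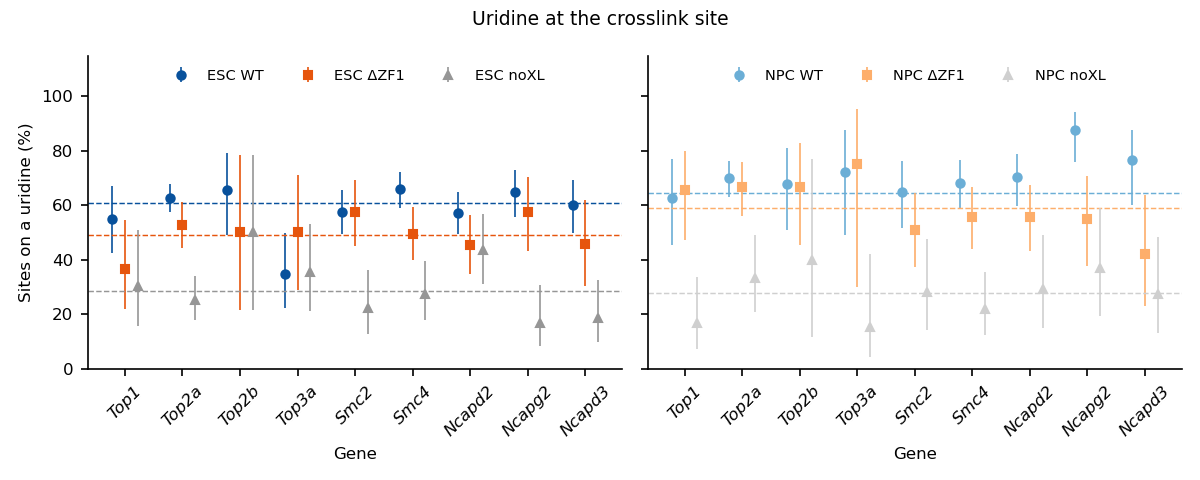
Share of sites on a uridine for each gene and list in ESCs (left) and NPCs (right), with 95% Wilson intervals, and dashed lines for all genic sites of the same list. WT points lie above noXL points for every gene except Top3a in ESCs, and the widest intervals belong to Top2b and Top3a, which had the fewest sites.

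The next comparisons asked whether any of the genes gained or lost sites beyond the length of the lists. A scaled log2 ratio is the log2 ratio of site counts plus 1, minus the log2 ratio of genic sites, and a gene was counted as higher or lower past 1 or -1 if it had at least 20 sites in both lists together.

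The first comparison set ΔZF1 against WT. In ESCs 0 of 9 genes were higher, where 6.84% of 6518 genes were, and 1 was lower, where 5.45% were. That gene was Top2b, with 8 sites in ΔZF1 and 35 in WT, at a scaled log2 ratio of -1.02 (-2.23 to -0.07). It lay just past the limit, and read -0.98 on uridine sites and -0.84 on sites at or above the median score, short of it. Smc4 at -0.01 (-0.37 to 0.33), Ncapd2 at -0.03 (-0.44 to 0.36) and Top1 at 0.00 (-0.65 to 0.61) were close to 0. Ncapd3 was at -0.44 (-1.02 to 0.09), Ncapg2 at -0.24, Smc2 at -0.22 and Top3a at -0.23. In all, 8 of 9 genes had ratios under 0, beside 3106 of 6518 genes. Their median was -0.23, where that of all genes was 0.04, and the summed sites of the 9 genes were at -0.22 (-0.37 to -0.07).

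In NPCs 0 of 9 genes were higher in ΔZF1 than in WT, where 5.76% of 5274 genes were, and 1 was lower, where 7.36% were. This was Top3a, with 4 sites against 18, at -1.34 (-3.08 to -0.09). Top2b, the ESC exception, was at -0.08 (-0.88 to 0.67) in NPCs, and the difference of its ratios between NPCs and ESCs was 0.94 with an interval from -0.39 to 2.27. Top1 and Smc2 were both at 0.45, Ncapd2 at 0.13, Smc4 at 0.02, Ncapg2 at -0.06 and Ncapd3 at -0.22. The summed sites were at -0.10 (-0.29 to 0.09), and at -0.38 on intron sites alone. In ratios on exon or intron sites alone, any annotated exon counted as exon, and they were not repeated on the principal transcript. By the principal transcript, Top2a held 124 of the 233 intron sites of the 9 genes in NPC WT. In NPC ΔZF1 it held 59 of 177, so the intron sum leans on this gene. On intron sites 4 of the genes had enough sites, of which Smc2 at 1.03 and Ncapd2 at 1.24 were higher, where 14.6% of 1442 genes were, and Top2a at -1.16 was lower, where 12.9% were.

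Top2a and Top3a are on chromosome 11, where sites as a whole were low in the ΔZF1 lists. The median gene of chromosome 11 was at -0.47 in ESCs and -0.61 in NPCs, while the medians of the other chromosomes ran from -0.02 to 0.18 and from -0.11 to 0.17. Top2a was at -0.30 (-0.60 to -0.02) in ESCs and -0.53 (-0.92 to -0.17) in NPCs, and 62.8% and 56.9% of the genes of its chromosome were lower. The NPC value was -0.17 on exon sites and -1.16 on intron sites, each scaled to the sites of that kind in the lists. By the principal transcript, the intron share of Top2a was 67.4% in NPC WT and 70.2% in NPC ΔZF1. That of all genes was 32.6% and 45.9%, so these ratios do not show that Top2a lost intron sites more than exon sites. Scaled within chromosome 11, Top2a turned to 0.27 and 0.10, and Top3a in NPCs was at -0.71, no longer past the limit. An effect of ΔZF1 on these RNAs and a difference of the lines on chromosome 11 cannot be told apart.

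**Figure D5:**
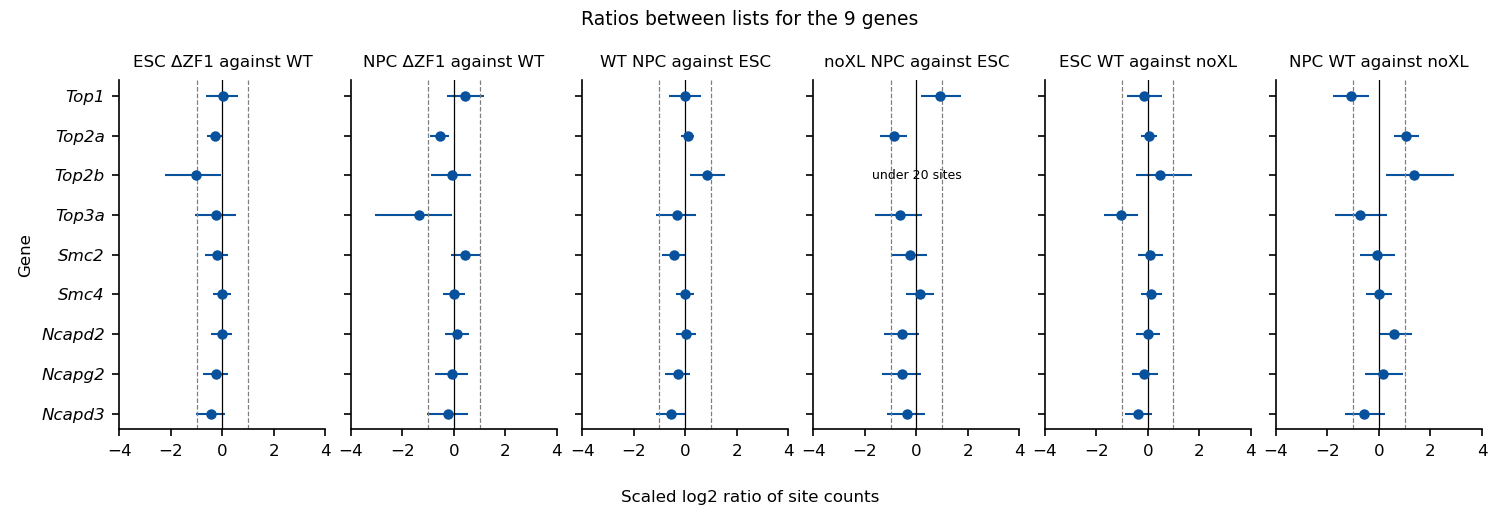
Scaled log2 ratios of the 9 genes in 6 comparisons, with points for values, lines for 95% intervals from counting alone, a solid line at 0 and dashed lines at the limits of 1 and -1. Top2b in ESCs and Top3a in NPCs are past -1 between ΔZF1 and WT, and Top1 lies below and Top2a and Top2b above 0 between NPC WT and NPC noXL.

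Between cell types, the WT ratios of Top2b and Ncapd3 had intervals that left out 0, in opposite directions, and none was past the limits. Of the 9 genes, 0 were higher in NPC WT than in ESC WT, where 11.5% of 6730 genes were, and 0 were lower, where 10.4% were. Top2b came nearest at 0.86 (0.18 to 1.53), from 8.16 to 14.8 sites per 100000 genic sites. Ncapd3 was at -0.56 (-1.15 to -0.02) and Smc2 at -0.43 (-0.90 to 0.01), whereas Top2a at 0.10, Ncapd2 at 0.05, Top1 at 0.01 and Smc4 at 0.01 were near 0. In the noXL lists, 0 of 8 genes compared were higher in NPCs, where 11.1% of 3726 genes were, and 0 were lower, where 12.3% were. Of these 8 genes 6 had ratios under 0, their median was -0.46 where that of all genes was -0.05, and the summed sites of the 9 genes were at -0.33 (-0.57 to -0.10). Top2a was lowest at -0.88 (-1.43 to -0.38), while Top1 went the other way at 0.93 (0.17 to 1.72). Top2b had 5 and 8 noXL sites and was not compared.

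The next comparison set WT against the noXL list of the same cells. In ESC WT 0 of 9 genes were higher, where 8.12% of 6208 genes were, and 1 was lower, where 6.60% were. This was Top3a, with 43 sites against 31 in noXL, at -1.05 (-1.70 to -0.38). With sites within 5 nt of noXL sites removed it read -0.97, and on uridine sites -2.19. Smc4 (0.12), Smc2 (0.08), Top2a (0.05) and Ncapd2 (-0.01) were near 0.

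In NPC WT 2 of 9 genes were higher than noXL, where 10.5% of 4765 genes were, and 1 was lower, where 6.51% were. The higher genes were both type II topoisomerases, Top2a with 184 sites against 39 at 1.04 (0.57 to 1.56), and Top2b with 34 against 5 at 1.37 (0.28 to 2.90). On uridine sites alone they read 0.83 and 0.62. Top2a read 0.98 with neighbouring sites merged, and Top2b 0.98 on exon sites and 0.84 at or above the median score. The lower gene was Top1, with 32 against 30 sites, at -1.08 (-1.79 to -0.37), and at -0.58 on uridine sites. For Top2a the NPC ratio exceeded the ESC ratio by 0.99 (0.40 to 1.57). Its level in the WT lists was 74.6 sites per 100000 genic sites in ESCs and 80.0 in NPCs, and in the noXL lists 71.6 and 38.2. For Top1 the WT levels were 13.98 and 13.9, and the noXL levels 15.2 and 29.4. For Top1 the NPC ratio minus the ESC ratio was -0.92, with an interval from -1.91 to 0.07 that holds 0. For Top2b the difference was 0.88 (-0.81 to 2.57) and rests on 8 and 5 noXL sites.

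The ΔZF1 lists were also set against noXL, although the controls were of the WT line. In ESCs 0 of 8 genes compared were higher, where 7.86% of 5013 genes were, and 1 was lower, where 6.56% were: Top3a, with 18 sites against 31, at -1.28 (-2.14 to -0.49). In NPCs 1 of 8 was higher, where 7.19% of 3699 genes were, namely Top2b with 21 against 5 sites at 1.29 (0.13 to 2.84), and 0 were lower, where 8.03% were. Top2b read 0.66 on uridine sites and 0.84 on exon sites, short of the limit. Top3a had only 4 and 13 sites there and was not compared. Scaled within chromosome 11, the ESC value of Top3a was -0.70. In NPCs Top2a was at 0.50 (-0.02 to 1.06) and Top1 at -0.63 (-1.36 to 0.09), both inside the limits. Scaled within chromosome 11, Top2a read 1.12, past the limit as in WT against noXL. The summed sites were at -0.26 (-0.45 to -0.07) in ESCs, with 7 of 8 ratios under 0, and at 0.13 (-0.10 to 0.38) in NPCs, with 2 of 8 under 0. For WT against noXL the sums were -0.04 (-0.20 to 0.12) in ESCs and 0.23 (0.02 to 0.46) in NPCs. In either cell type 5 of 9 ratios were under 0 and the median of the 9 genes was -0.01. The NPC sum leans on Top2a, which held 184 of the 593 WT sites and 39 of the 223 noXL sites.

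Positions were also compared between lists at the scale of a few nucleotides. Of the 500 ESC ΔZF1 sites in the 9 genes, 24.0% (20.5 to 27.9) had an ESC WT site within 5 nt on the same strand, against 4.00% after shifts of 500 and 1000 nt, and 24.2% of all genic ESC ΔZF1 sites did. In NPCs 13.3% (10.2 to 17.2) of ΔZF1 sites had a WT site nearby, with 2.72% after the shifts. NPC WT sites lay near ESC WT sites in 31.0% (27.4 to 34.9), with 5.19% after the shifts. WT sites lay near noXL sites in 8.89% (7.38 to 10.7) in ESCs and 4.72% (3.29 to 6.74) in NPCs, with 1.92% and 1.60% after the shifts. ΔZF1 sites lay near noXL sites in 8.60% (6.45 to 11.4) in ESCs, with 2.30% after the shifts. In NPCs that share was 1.90% (0.924 to 3.87), an interval that holds the shifted value of 1.09%. Over all genic sites, 13.1% of NPC ΔZF1 sites lay near NPC WT sites and 28.2% of NPC WT sites near ESC WT sites. The overall shares near noXL sites were 7.67% (ESCs) and 5.64% (NPCs) for WT, and 8.69% and 3.8% for ΔZF1. Between the noXL lists the share was 12.1% (8.46 to 17.0) for the 9 genes, with 1.35% after the shifts, and 6.65% for all genic sites.

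The RNAs of proteins that work with these enzymes were counted in the same way, over 27 genes in 4 lists. Between ESC ΔZF1 and ESC WT, 23 had enough sites and 0 passed either limit, where 6.84% of all genes were higher and 5.45% lower, and their median was 0.01. The other condensin subunits Ncaph, Ncaph2 and Ncapg passed neither limit in the comparisons where they had enough sites, from which nothing is read with so few genes, and between NPC WT and ESC WT all 3 were between -0.33 and -0.17. In NPC ΔZF1 against WT the median was 0.14, beside -0.04 for all genes, and 2 of 21 were higher, where 5.76% of all genes were: Topors, a ubiquitin and SUMO ligase that binds topoisomerase I, with 30 sites against 20 at 1.15 (0.37 to 1.98), and Nsmce2, the SUMO ligase of the SMC5/6 complex, with 18 against 9 at 1.51. Top3b, the topoisomerase that also acts on RNA, was lower in NPC WT than in ESC WT, with 14 sites against 68 at -1.30 (-2.20 to -0.56), and at -1.44 between the noXL lists. In the WT lists Tdp1, which frees topoisomerase I from DNA and is named although it has under 50 sites in all, was at 1.02 (-0.16 to 2.24) with 11 against 10 sites. Of 24 such genes 1 was higher and 1 lower between the WT lists, where 11.5% and 10.4% of all genes were. The noXL lists had 3 of 16 lower in NPCs, where 12.3% of all genes were, namely Top3b and the mitotic kinases Cdk1 (-1.21) and Bub1 (-1.22).

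Over noXL, 2 of 22 such genes were higher in ESC WT, where 8.12% of all genes were. One was Tdp2, which releases trapped topoisomerase II from DNA ends, with 60 sites against 6 at 1.61 (0.64 to 2.99), and the other Nsmce1 of the SMC5/6 complex, with 31 against 3 at 1.49 (0.24 to 3.48). Tdp2 was also higher in ESC ΔZF1, with 33 sites against 6 at 1.75, and Nsmce2 was lower at -1.06, each 1 of 21 where 7.86% and 6.56% of all genes were. In NPC WT 1 of 20 was higher, where 10.5% of all genes were, the proliferation antigen Mki67, which coats mitotic chromosomes, with 80 against 16 sites at 1.08. In NPC ΔZF1 4 of 20 were higher, where 7.19% of all genes were, namely Mki67 (1.21), Cdk1 (1.36), Topors (1.20) and the condensin II regulator Mcph1 (1.40).

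Genes with the most similar profile were sought among 3861 genes with at least 100 sites over the 6 lists, by the root mean square difference of centred log2 levels. Nearest to Top2a were Plxna1 (0.05), Serinc1 (0.07) and Tmem30a (0.08). Nearest to Smc4 were Rfwd3 (0.06), Prpf38b (0.07) and Tgfbr1 (0.08), and nearest to Top1 were Rb1cc1, Ube2l3 and Vps13b (0.10 to 0.11). Among the 9 genes, Smc4 was nearest to its partner Smc2 at 0.19, while Top2a and Top2b differed by 0.67.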

How the data were processed

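CTCF iCLIP2 was analysed in 23 libraries of 6 groups taken from the sample labels. Flexbar (trimming), STAR (alignment, mm10), UMI-tools (duplicates) and PureCLIP (site calling on the merged libraries of each condition) were used by the authors, and sites are 1 nt wide. The score deposited by the authors for each site comes from PureCLIP and is not scaled to depth. No file gives read depth, so precision is set by the number of sites in a list.

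Sites of autosomes and sex chromosomes were given, by strand, to GENCODE M21 gene bodies, and bases were read from GRCm38. The members and gene lists were chosen with earlier results of these data known. Exon and intron sites of the members follow the APPRIS principal transcript with the longest coding sequence. Ratios on exon or intron sites alone instead counted any annotated exon as exon. They were scaled to the genic exon or intron sites of each list. Ratios used a pseudocount of 1, a minimum of 20 sites over both lists, and limits of 1 and -1. A count of 3 served as the limit allowed by 0 sites. Shares carry 95% Wilson intervals, ratios intervals derived from these, and levels exact Poisson intervals. Of the listed genes, those with at least 50 sites in all were named. Alternatives changed scaling, pseudocount, minimum, merging (8 nt), sharing distance and the sites used. The genes with a profile nearest to Top2b are not reported here. The calculations were tested on simulated data. Intervals were computed with scipy 1.17.1 and tables with pandas 2.3.3 and numpy 2.4.6 under Python 3.11.15, sequences were read with pysam 0.24.0, and plots were drawn with matplotlib 3.10.9.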

Additional observations from a re-analysis of the deposited data

Results flagged for a closer look

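Antisense sites within the bodies of the 9 genes were used in no comparison. There were 4 of them in ESC ΔZF1, 3 in Top1 and 1 in Top2b, and 0 in each of the other 5 lists, the noXL list of the same cells included. That noXL list came from the WT line and was shorter, and the difference was not tested.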

How the results depend on the processing

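No paired analysis was possible because sites had been called on merged libraries, which leaves 1 list per group. Leaving out the scaling to the genic sites adds 1 constant to every gene of a comparison, so the values without it follow the lengths of the lists and say nothing about the 9 genes in particular. Without it the summed sites of the 9 genes moved to a log2 ratio of -1.196 in ESCs and -0.69 in NPCs for ΔZF1 against WT, -0.95 for WT and -0.89 for noXL between NPCs and ESCs, 1.46 in ESCs and 1.41 in NPCs for WT against noXL, and 0.27 and 0.72 for ΔZF1 against noXL. The genes past the limits then numbered 7, 2, 4, 4, 8, 6, 0 and 3 in the same order, and Top3a in ESC WT against noXL (0.46) and Top1 in NPC WT against noXL (0.0902) changed sign by that constant. Intron sites alone gave -0.38 for NPC ΔZF1 against WT, 0.24 for NPC WT against ESC WT and 0.66 for NPC WT against noXL. These intron sums lean on Top2a. By the principal transcript it held 124 of 233 intron sites in NPC WT, 59 of 177 in NPC ΔZF1 and 31 of 103 in NPC noXL.

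Numbers of genes past the limits were small and moved elsewhere too. Scaling within the chromosome left 0 for NPC ΔZF1 against WT and ESC ΔZF1 against noXL and gave 2 for NPC ΔZF1 against noXL. Sites at or above the median score of 3.02 left 0 for ΔZF1 against WT in ESCs and NPCs. Uridine sites left 0 for ΔZF1 against WT in both cell types and for NPC WT and NPC ΔZF1 against noXL, and gave 1 for the noXL lists. Removal of sites near noXL sites left 0 for ESC WT against noXL, and exon sites gave 1 for NPC WT against noXL. Intron sites gave 3 for NPC ΔZF1 against WT, 1 each for WT and noXL between cell types and for NPC WT against noXL, and 0 for ESC WT and ESC ΔZF1 against noXL. A minimum of 10 sites gave 2 for NPC ΔZF1 against noXL. Genes under 20 sites under an alternative were not counted, so Top3a in NPC ΔZF1 against WT dropped out with fewer sites, although it still read -1.01 at the median score and -1.09 on uridines.

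With any annotated exon in place of the principal transcript, exons held 65.9% of the WT sites of ESCs and 66.4% of those of NPCs, and at or above the median score 70.1% and 73.1%. Uridine shares moved to 55.1% in ESC ΔZF1 and 74.2% in NPC WT at that score. At a distance of 0 nt the shares of nearby sites, in the order ΔZF1 near WT, WT near noXL and ΔZF1 near noXL, were 12.4%, 2.53% and 2.80% in ESCs and 3.53%, 1.35% and 0.543% in NPCs, with 13.3% for NPC WT near ESC WT and 4.04% for the noXL lists. At 10 nt they were 31.4%, 12.6% and 13.2% in ESCs, 17.9% and 6.91% for the first pairs in NPCs, and 40.0% for NPC WT near ESC WT. Of the values that answer a comparison, 154 stayed within their limits under an alternative and 56 did not. The exon and intron ratios of Top2a in NPC ΔZF1 against WT were scaled to different sites. Its own intron share was 67.4% in WT and 70.2% in ΔZF1. The cause of the rise in the intron share of all genes was not tested. The counts of Top2b (5 to 35) and Top3a (4 to 43) limit what their ratios can show.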
